A study of Homo sapiens with 22 samples.

Results

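The regions described here were open in every library of the series and lay away from the ends of genes. Merging the peaks of 22 ATAC-seq libraries on the 22 autosomes and X gave 96166 union regions, and 13884 of these held a called peak in all 22 libraries. The 5431 regions described below were selected on those peak calls and on their place: each lay more than 1 kb from both ends of every protein-coding gene in RefSeq (GRCh38.p14). The other 8453 regions called in all libraries lay within 1 kb of such an end, and 77102 regions away from gene ends were called in fewer libraries. Because the peak calls chose the regions, their presence in every library, and the larger width and peak strength that go with it, are given as descriptions without a test.

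ATAC-seq inserts sequencing adapters into DNA that nucleosomes leave exposed, so a peak marks accessible chromatin. Accessible sites away from gene ends are known to include enhancers, which raise transcription from a distance, insulator sites bound by CTCF, second promoters inside genes, and promoters of non-coding RNA genes. Sites open in nearly every condition are often promoters, while enhancers tend to differ more between cell types. In multiple myeloma, a cancer of plasma cells, the translocation t(4;14) brings NSD2, a methyltransferase of histone H3 lysine 36, next to enhancers of the immunoglobulin heavy chain gene.

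The study profiled 2 myeloma cell lines, with 12 libraries of KMS11 and 10 of KMS34 in 11 groups of 2. KMS11 and KMS34 were sampled at day 0 without treatment, and at day 4 and day 10 with the vehicle DMSO or with NSD2LDD, an agent the series describes as inducing NSD2 degradation. The title of 1 KMS34 library with NSD2LDD lacks its day, and its description and time point label give day 4. All these groups carry the genotype t(4;14). One further untreated KMS11 group at day 0 carries the genotype label TKO. The sources used here do not say what TKO stands for, whether those cells were 1 clone, or which NSD2LDD concentration was used. Nothing says that the 2 libraries of a group came from separate cultures, so the p-values below measure only the spread between these samples. The lists held 24979 to 52518 peaks. They hold no read counts, so the depth behind each value is unknown, and a region without a called peak may be closed or only read too thinly. KMS11 at day 0, replicate 2, had the shortest list, and KMS34 in DMSO at day 4, replicate 2, the longest.

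The sequences below show what kind of start sites the regions hold. They come from RefSeq (GRCh38.p14), and each is read 5′ to 3′ on the strand of its gene. For lncRNA genes the window runs from 250 bases before the transcription start to 50 bases into the transcript, and for protein-coding genes it holds the 250 bases before the start. Capitals mark the GC box GGGCGG bound by SP factors, the CCAAT box CCAAT, the AP-1 site TGANTCA and the TATA letters TATAAA, on either strand. The first 3 are GC-rich starts of broadly transcribed genes. MALAT1 (chr11:65497488-65497787, plus strand, 73.7% GC) is a nuclear lncRNA, SNHG5 (chr6:85678684-85678983, minus strand, 67.7% GC) is a snoRNA host gene, and UBE2D2 (chr5:139561089-139561338, plus strand, 73.6% GC) encodes a ubiquitin-conjugating enzyme with a listed start inside its gene body.
MALAT1: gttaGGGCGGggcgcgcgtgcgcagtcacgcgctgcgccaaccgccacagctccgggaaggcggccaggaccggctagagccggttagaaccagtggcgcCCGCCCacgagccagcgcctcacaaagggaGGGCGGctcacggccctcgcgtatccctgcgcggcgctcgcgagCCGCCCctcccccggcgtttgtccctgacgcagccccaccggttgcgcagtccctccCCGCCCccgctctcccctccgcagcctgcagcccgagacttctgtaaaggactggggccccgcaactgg
SNHG5: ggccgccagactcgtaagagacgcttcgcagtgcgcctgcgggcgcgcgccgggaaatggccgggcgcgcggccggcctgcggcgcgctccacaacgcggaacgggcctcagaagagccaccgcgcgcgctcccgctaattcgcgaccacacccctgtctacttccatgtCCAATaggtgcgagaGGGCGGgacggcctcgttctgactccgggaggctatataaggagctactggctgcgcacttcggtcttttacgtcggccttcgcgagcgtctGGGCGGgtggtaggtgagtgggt
UBE2D2: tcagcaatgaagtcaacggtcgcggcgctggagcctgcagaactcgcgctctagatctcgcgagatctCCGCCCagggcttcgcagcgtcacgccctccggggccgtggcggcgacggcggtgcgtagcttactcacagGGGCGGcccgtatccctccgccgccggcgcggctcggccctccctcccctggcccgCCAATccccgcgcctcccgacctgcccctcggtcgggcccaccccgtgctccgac
The next 4 starts lie in regions whose covered length differed most between TKO and day 0 or between the lines. PAXIP1-AS2 (chr7:154928267-154928566, plus strand, 36.3% GC), LINC02827 (chr12:3300113-3300412, plus strand, 54.7% GC) and FGF13-AS1 (chrX:138711857-138712156, plus strand, 59.7% GC) are lncRNAs. KCNN3 (chr1:154859877-154860126, minus strand, 50.4% GC) encodes a calcium-activated potassium channel.
PAXIP1-AS2: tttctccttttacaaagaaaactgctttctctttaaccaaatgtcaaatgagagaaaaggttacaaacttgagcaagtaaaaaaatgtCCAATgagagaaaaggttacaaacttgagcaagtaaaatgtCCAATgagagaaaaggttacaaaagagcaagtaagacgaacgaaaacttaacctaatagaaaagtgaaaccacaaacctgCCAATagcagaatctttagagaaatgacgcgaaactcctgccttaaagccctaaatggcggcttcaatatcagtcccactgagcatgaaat
LINC02827: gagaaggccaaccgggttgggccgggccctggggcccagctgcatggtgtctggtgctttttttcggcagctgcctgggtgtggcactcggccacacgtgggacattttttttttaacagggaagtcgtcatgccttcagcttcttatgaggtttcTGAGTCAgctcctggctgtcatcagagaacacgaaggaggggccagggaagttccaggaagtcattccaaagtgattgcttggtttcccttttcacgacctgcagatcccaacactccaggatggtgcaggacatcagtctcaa
FGF13-AS1: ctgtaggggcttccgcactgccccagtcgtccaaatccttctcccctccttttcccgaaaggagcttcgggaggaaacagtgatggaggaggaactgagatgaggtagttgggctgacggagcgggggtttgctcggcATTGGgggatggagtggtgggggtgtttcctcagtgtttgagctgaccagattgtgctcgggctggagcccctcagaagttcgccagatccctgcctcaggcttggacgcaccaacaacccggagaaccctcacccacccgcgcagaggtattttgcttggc
KCNN3: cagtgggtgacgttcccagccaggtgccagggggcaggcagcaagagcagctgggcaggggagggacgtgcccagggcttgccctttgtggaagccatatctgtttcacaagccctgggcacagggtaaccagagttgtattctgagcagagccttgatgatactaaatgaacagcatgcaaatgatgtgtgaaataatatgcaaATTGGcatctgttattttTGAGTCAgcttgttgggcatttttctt
None of these last 4 windows holds the GC box letters, whereas the MALAT1 window shown holds 5. These windows are examples, and others differ. Another MALAT1 start listed in the same region has a window with 46.0% GC, the TATA letters and no GC box. The BCL11A start window, in a region called lower in TKO, holds the GC box letters.

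Most of the regions lay inside genes. Of the 5431, 2802 (51.6%) lay in a protein-coding gene, 1094 (20.1%) in another gene only, and 1535 (28.3%) between genes. The median distance to the nearest protein-coding gene end was 23736 bp (quartiles 8238 and 69111.5 bp), and 1770 regions (32.6%) lay more than 50 kb away. Regions called in fewer libraries lay farther out. The median distance was 25054 bp for the 1681 called in 21 libraries, 33581 bp for those called in 11 to 20, 45298.5 bp for those called in 2 to 10 and 53314 bp for those called in 1. The share between genes was 30.8%, 37.1%, 39.7% and 41.8% in the same order. At the 1 kb limit, the 23 regions at 1001 to 1100 bp from a gene end had a median of 634 covered bp, and the 33 always-open regions at 901 to 1000 bp, just outside the rule, had 719.

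**Figure D1:**
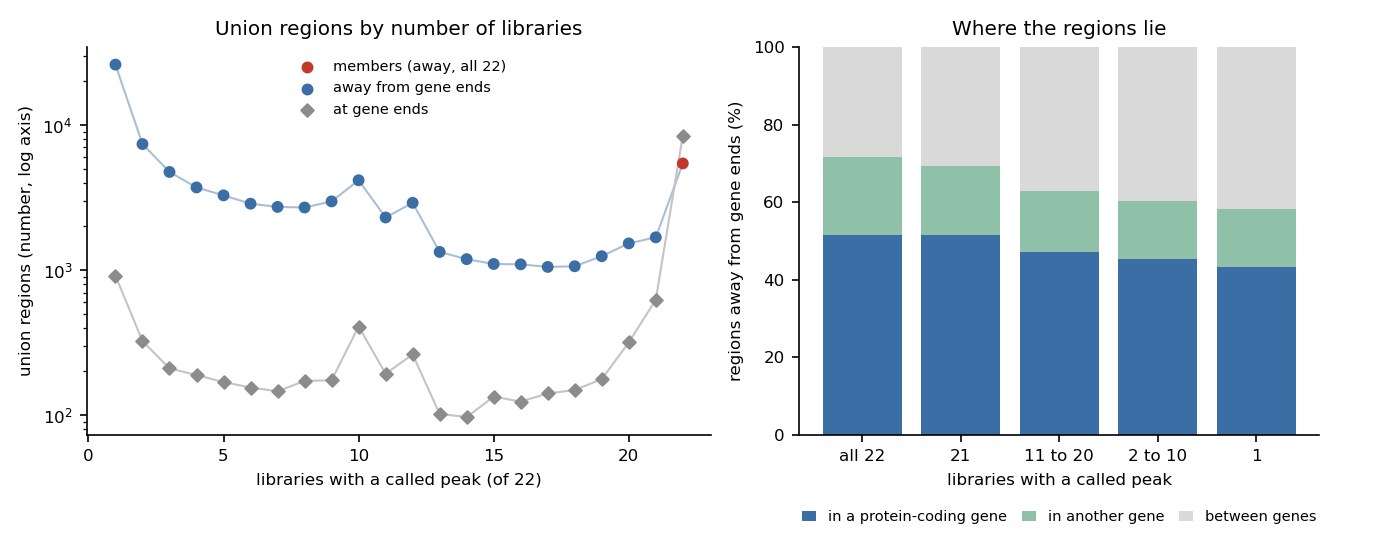
Left, the number of union regions (log axis) by the number of libraries with a called peak, away from gene ends (circles; the 5431 described here in red) and at gene ends (diamonds). Right, the percent of regions away from gene ends that lay in a protein-coding gene, in another gene only, or between genes, by number of libraries. The share between genes rises from 28.3% for regions called in all 22 libraries to 41.8% for regions called in 1.

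The most remote regions lay over 1 Mb from any protein-coding gene. One at chr1:125180045-125180482 was 3716916 bp from the nearest, and a pair on chromosome 18 at chr18:39946434-39947341 and chr18:39959099-39960508 lay 2007893 and 1994726 bp from PIK3C3, a lipid kinase of autophagy. The chromosome 1 region covered 310 to 397 bp in the 22 libraries. No filter for repeated or artifact-prone sequence was applied here, and whether misplaced reads made such remote peaks was not tested. Among the 10 largest regions by mean covered length, 3 are given here. The region at chr9:70418215-70421086, 3558 bp from KLF9, covered 1803 to 2729 bp, and the one at chr6:21587040-21589504, 4247 bp from SOX4, covered 728 to 2456 bp. The region at chr9:6757058-6759449 in KDM4C, a histone demethylase, covered 1493 to 2365 bp and held a listed start of that gene. KLF9 and SOX4 encode DNA-binding transcription factors.

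The regions were wider than regions away from gene ends called in fewer libraries, and narrower than always-open regions at gene ends. The median union width was 1089 bp (323 to 4227 bp). It was 922 bp for regions called in 21 libraries and 1330 bp for always-open regions at gene ends. A median of 299 bp was covered in all 22 libraries. In 171 regions (3.15%) no single base was covered in every library. A single peak in every library made up 4162 regions (76.6%). The SD of the summit position over libraries had a median of 55.7 bp, and in 2390 regions (44.0%) it was at most 50 bp. The median summits of the 2 lines lay a median of 19 bp apart. In 280 regions (5.16%) the lines' summits lay more than 200 bp apart.

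A listed transcription start fell in 1086 regions (20.0%), although all lay more than 1 kb from the annotated ends of protein-coding genes. RefSeq lists several starts for many genes, and 715 regions (13.2%) held a protein-coding start inside a gene body, from 693 genes. Another 371 (6.83%) held only a lncRNA start. Small RNA genes lay within 1 kb of a further 115 regions (2.12%), and 4230 (77.9%) had none of these. Among regions away from gene ends called in 2 to 20 libraries, 0.94% held a protein-coding start and 1.19% a lncRNA start, against 13.2% and 9.02% here. For the 1681 called in 21 libraries the shares were 5.77% and 3.57%. Regions with a protein-coding start were also the longer ones, at a median of 923.8 mean covered bp against 651.5 bp for those with no listed start. Their values varied less, with a median SD over libraries of 0.202 against 0.271 on the log2(covered bp + 100) scale after scaling.

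Starts in these regions resembled promoters at gene ends in base content. The protein-coding start windows in the regions had a median GC content of 67.7% and 28 CpG, against 66.3% and 28 for protein-coding starts in always-open regions at gene ends. Protein-coding starts in no called region had 54.0% and 6 CpG. The GC box (GGGCGG, both strands) was in 73.3% of the protein-coding and 59.5% of the lncRNA start windows of the regions. It was in 76.3% of those at always-open gene ends, 30.8% of protein-coding starts in no region, 13.7% of lncRNA starts in no region and 45.0% of all 34960 listed starts. The ETS letters CCGGAAG, bound by ETS factors, were in 12.6% and 15.3% of the protein-coding and lncRNA start windows here, and in 22.3% at always-open gene ends. They were in 10.3% of all starts. TATAAA was in 3.72% and 5.26% here against 11.5% of all starts. The AP-1 letters TGANTCA were in 4.16% and 8.60% here against 7.68% of all starts, and the CTCF core letters CCANNAGGG in 6.24% and 6.32% against 6.46%. These are matches of letters in start windows and not bound sites. Several windows can belong to 1 gene, and the motifs can overlap.

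**Figure D2:**
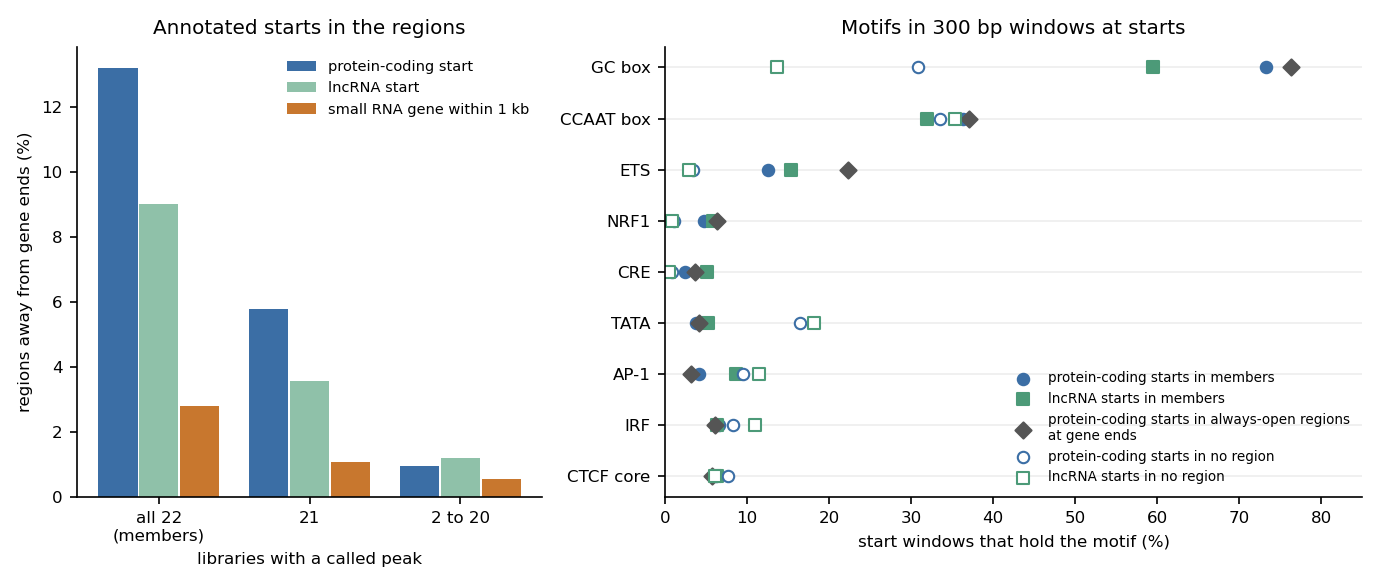
Left, the percent of regions away from gene ends that hold a listed protein-coding start, a listed lncRNA start or a small RNA gene within 1 kb, for regions called in all 22 libraries, in 21 and in 2 to 20. Right, the percent of start windows that hold each motif on either strand, by set of starts. The GC box is in 73.3% of protein-coding start windows in the regions, close to the 76.3% at always-open gene ends, and in 30.8% of those in no region.

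Genes for RNAs of the basic cell machinery lay at some of the regions. Of the 5431 regions, 60 lay within 1 kb of a tRNA gene, 20 of a spliceosomal or other snRNA gene, 14 of a snoRNA gene and 46 of a miRNA gene. They included the genes of the telomerase RNA TERC, the signal recognition particle RNAs RN7SL1 and RN7SL2, and the Y RNAs RNY1 and RNY5. The TERC region (chr3:169764356-169765445) covered 633 to 1038 bp with a median of 892 bp. The RN7SL1 region (chr14:49585792-49587096) covered 571 to 1220 bp with a median of 1018.5 bp. Of the 138 regions away from gene ends within 1 kb of a tRNA gene and called in at least 2 libraries, 43.5% were open in every library. For snRNA genes it was 52.6% of 38 and for lncRNA genes 25.0% of 3325. It was 43.4% for transcribed pseudogenes, 11.9% for other pseudogenes and 6.49% for V segment genes. Over all 56467 regions away from gene ends called in at least 2 libraries it was 9.62%. Reads from near-identical copies of the small RNA genes are hard to place, so single loci are uncertain.

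Mature miRNA genes sat directly in some of the regions. Of 1562 hairpins listed in RefSeq, 23 lay wholly inside 21 of the regions. miR-132 and miR-212 lay in 1 region, chr17:2049734-2050649, and their 3p strands share a seed (bases 2 to 8, in capitals), so they are shown together. The let-7i and miR-9-2 hairpins lay at chr12:62602381-62603981 and chr5:88666629-88668249.
miR-132-3p: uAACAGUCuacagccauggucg
miR-212-3p: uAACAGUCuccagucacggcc
let-7i-5p: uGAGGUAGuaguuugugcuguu
miR-9-5p: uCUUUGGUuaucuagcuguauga
let-7 miRNAs are known to repress growth genes such as RAS and MYC. The mean covered length over libraries was 706.1 bp for the miR-132 and miR-212 region, 1436.3 bp for the let-7i region and 967.3 bp for the miR-9-2 region. The lists measure accessibility of the DNA, and the level of these miRNAs was not measured.

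The regions were mostly solitary. With a gap of at most 10 kb, 4781 (88.0%) had no neighbour among the 5431, and 32 chains of 3 or more held 100 regions (1.84%). The longest chains had 4 regions each, at 4 loci. One ran over 26868 bp of the immunoglobulin kappa locus, which encodes a light chain of the antibodies that plasma cells secrete. Its region over the constant gene IGKC (chr2:88855371-88858444) covered 520 to 2664 bp with a median of 1186 bp. The region at chr2:88831577-88833013, over the kappa deleting element IGKDEL, covered 724 to 1390 bp with a median of 1132 bp and an SD over libraries of 0.140 on the scaled log2 scale. The other 2 regions of the kappa chain (chr2:88837741-88838873 and chr2:88845557-88846446) had medians of 741.5 and 482.5 bp. At the constant gene the lines overlapped, with medians of 1245 bp in KMS11 and 1148.5 bp in KMS34. The second chain ran over 31733 bp at MALAT1. Its region at the MALAT1 start, shown above by sequence, covered 535 to 2149 bp with a median of 840 bp. The region at the other MALAT1 end (chr11:65506605-65508507) had a median of 1805 bp in KMS11 and 1059 bp in KMS34. The third lay in MIR181A1HG, the host gene of a miR-181 pair. The fourth was at chr16:46389643-46401590, 177001 bp from SHCBP1, a gene of cell division. Whether misplaced reads made the peaks of the fourth chain was not tested either. Among genes, chosen after their values were seen, NSMCE2 held 9 of the regions, and CDK6, PALM2AKAP2, PDE4D and SRPK2 held 7 each. NSMCE2 is a SUMO ligase and CDK6 a cyclin D kinase. The 2189 protein-coding genes that hold such a region were long, with a median of 89.8 kb against 24.2 kb for all genes. The distance rule favours this, since short genes cannot hold such a region and longer genes offer more bases for one.

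In each library the regions held a minority of the open bases. Their covered bases summed to 2.81 to 5.10 Mb per library, 14.8% to 24.4% of all covered bases. The median covered length per region ranged from 470 bp in KMS11 at day 0, replicate 2, to 877 bp in KMS11 with NSD2LDD at day 10, replicate 2. Replicates of 1 group differed as much as groups did: KMS11 in DMSO at day 10 had medians of 608 and 850 bp, and KMS11 with NSD2LDD at day 10 had 604 and 877 bp. The always-open regions at gene ends were longer in every library (592 to 1140 bp). By the deposited q-value, peaks in the regions ranked at the 58.5th to 80.4th percentile of their list, below peaks at always-open gene ends (67.5 to 86.6) and above other peaks away from gene ends (28.8 to 37.0). The deposited fold enrichment had library medians of 7.03 to 12.6 in the regions and 7.15 to 11.9 at always-open gene ends. For other peaks away from gene ends the medians were 4.82 to 8.14. By fold the regions were not below gene ends in every library: KMS34 in DMSO at day 4, replicate 2, had 12.6 against 11.8.

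**Figure D3:**
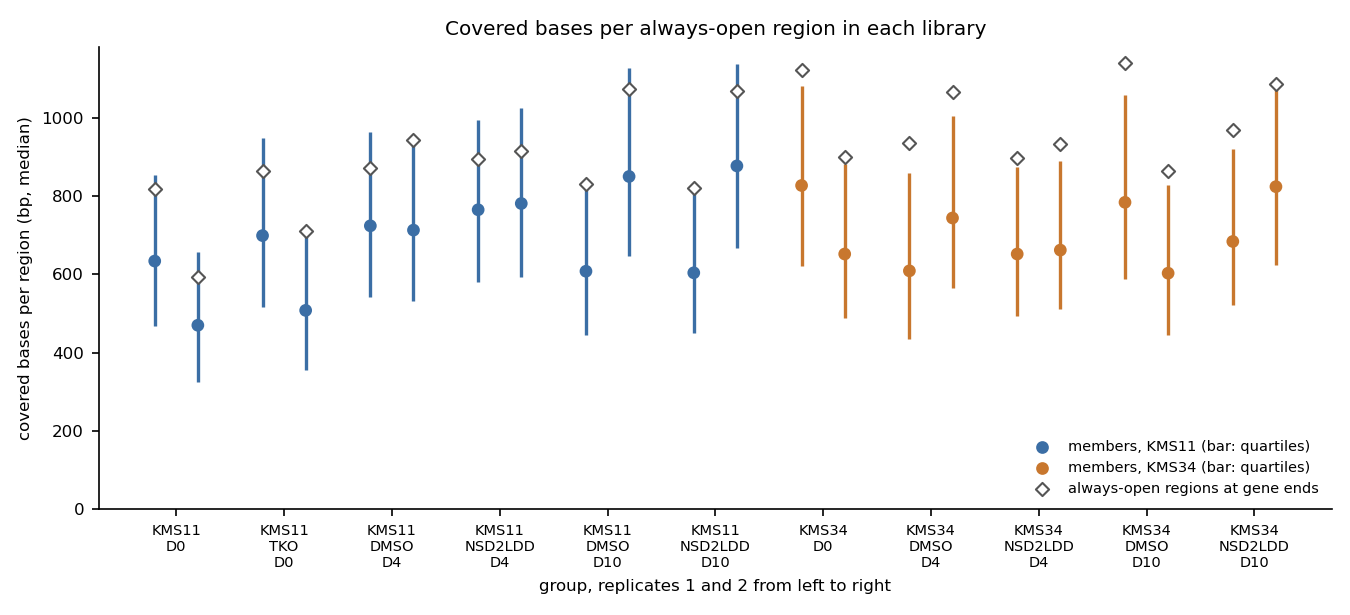
Median covered bases per region in each library for the 5431 regions (circles, bars from the lower to the upper quartile, blue for KMS11 and orange for KMS34) and for always-open regions at gene ends (open diamonds). The 2 replicates of a group stand side by side, and pairs such as KMS11 in DMSO at day 10 (608 and 850 bp) lie as far apart as groups do.

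Which regions counted as open everywhere depended on a few short lists. Of the 1681 regions away from gene ends called in 21 libraries, 643 (38.3%) lacked only KMS11 at day 0, replicate 2, and 327 (19.5%) lacked only TKO replicate 2. A further 194 (11.5%) lacked only KMS34 in DMSO at day 4, replicate 1, and 160 (9.52%) only TKO replicate 1. Without KMS11 at day 0, replicate 2, 6074 regions would be open everywhere.

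Values were compared between groups as log2(covered bp + 100) less the library's median over the 13884 always-open regions, and a limma fit over 69187 regions gave each difference, its standard error (SE) and its Benjamini-Hochberg adjusted p. All 5431 regions entered the fit. Since a region that lost its peak in any library cannot be among them, counts are given beside the share of all regions called and are not tests of the set. The typical variation was small: the median SD within groups was 0.213, that of the 11 group means was 0.198, and the median absolute difference between lines was 0.178. At always-open gene ends these were 0.174, 0.144 and 0.117. The steadiest region was at the UBE2D2 start shown above, with 816 to 1546 bp and a scaled SD of 0.076. The most variable was the one at chr2:223075368-223077320, near KCNE4, with 170 to 1862 bp and a scaled SD of 0.963.

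Under NSD2LDD almost none of the regions were called in KMS11, and few were among all regions tested. Of 5431, 0 passed the threshold as lower (0.0318% of all regions tested did) and 1 as higher (0.0376% of all). At unadjusted p under 0.05 there were 181 (3.33%), against 4.80% of all regions. The median log2 difference was 0.03, against -0.01 over all regions. The region that rose (chr14:67488041-67489059) lies within both GPHN, the gene of a scaffold protein of inhibitory synapses, and TMEM229B. It covered 561, 648, 314 and 586 bp in the DMSO libraries (day 4 and then day 10) and 926, 865, 702 and 993 bp with NSD2LDD, and the treated libraries all lay above the DMSO ones. The log2 difference was 0.65 (SE 0.11, adjusted p = 0.0477). That call is near the threshold: it was kept in 5 of the 22 fits that left out 1 library.

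In KMS34 4 regions were called higher with NSD2LDD (0.642% of all regions were) and 0 lower (0.344% of all). At unadjusted p under 0.05 there were 239 (4.40%), against 9.88% of all regions. The clearest lies in the non-coding gene MGC4859 (chr7:10662629-10663722), 268221 bp from the nearest protein-coding gene. It covered 255 and 259 bp in DMSO at day 4, 731 and 564 bp in DMSO at day 10, and 656, 1018, 1026 and 1074 bp with NSD2LDD. Untreated KMS34 at day 0 had 994 and 889 bp and the KMS11 libraries 854 to 1090 bp, so the DMSO libraries at day 4 stood lowest. The groups overlapped, since the highest DMSO value exceeded the lowest treated one. The log2 difference was 1.02 (SE 0.12, adjusted p = 0.00205), and it was called in all 22 fits without 1 library but not in a fit of KMS34 alone. The other 3 lay 163528 bp from NSG2 (chr5:174272707-174274124, 0.83, SE 0.19), in NRCAM, a neuronal adhesion molecule (chr7:108323874-108325278, 0.56, SE 0.10), and in POLI, a DNA polymerase of damage bypass (chr18:54284619-54285681, 0.50, SE 0.11). Their adjusted p-values were 0.0497, 0.0313 and 0.0462. They were called in 1, 10 and 3 of the 22 fits without 1 library. At day 4 alone 2 of the 4 were called, and at day 10 alone 0 of them. Without KMS34 in DMSO at day 4, replicate 2, 16 regions were called.

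The effect of NSD2LDD was not shown to differ between the lines in any of the regions. For the difference of effects 0 were lower (0.00289% of all regions) and 0 higher (0.00289% of all) by limma, with 116 (2.14%) at unadjusted p under 0.05, against 5.99% of all regions. With every list shortened to the same length 25 regions were called, 13 lower and 12 higher, and with 30 bp added before the log 1.

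The TKO pair differed from day 0 KMS11 in 130 regions, more often downward. As lower 100 were called (1.84%, against 3.10% of all regions) and as higher 30 (0.552%, against 0.967% of all). The median log2 difference was -0.03, against -0.14 over all regions. The counts rest on 2 libraries a group: without day 0 replicate 2 they were 53 and 22, without day 0 replicate 1 104 and 128, without TKO replicate 1 127 and 14, and without TKO replicate 2 59 and 31. Without scaling between libraries they were 19 and 11. Regions that fell lay farther from gene ends (median 48554 bp) than those that rose (13589.5 bp), and 21% and 23.3% of them held a listed start.

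The 5 largest falls under TKO lay in or at various distances from SALL3, FGF13, TBXAS1, MUSK and ZNF804A. The region 39389 bp from SALL3, a zinc finger regulator of development (chr18:78938835-78940429), covered 1300 and 657 bp at day 0 and 233 and 169 bp in TKO. The log2 difference was -1.92 (SE 0.27, adjusted p = 0.000493), and the other KMS11 libraries covered 1235 to 1426 bp. The region over the FGF13-AS1 start in FGF13, a non-secreted fibroblast growth factor (chrX:138710735-138712757), covered 1368 and 529 bp at day 0 and 208 and 168 bp in TKO, a log2 difference of -1.88 (SE 0.20, adjusted p = 4.16e-05). In TBXAS1, the thromboxane synthase gene (chr7:139916174-139917486), the values were 1161 and 806 bp at day 0 and 302 and 227 bp in TKO. That gave -1.70 (SE 0.12, adjusted p = 9.05e-07). In these 3 regions both TKO libraries were below both day 0 libraries and below every other library of either line. The remaining falls were near MUSK, a kinase of the neuromuscular junction (-1.79, SE 0.23), and 599280 bp from ZNF804A (-1.77, SE 0.31), with adjusted p-values of 0.00021 and 0.00274. The region at the BCL11A start inside that gene, a B cell regulator, covered 1476 and 739 bp at day 0 and 533 and 513 bp in TKO (chr2:60549524-60551896, -1.02, SE 0.21, adjusted p = 0.00983).

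The rises under TKO looked different once the other KMS11 libraries were set beside them. The PAXIP1-AS2 region (chr7:154927667-154928916) covered 297 and 189 bp at day 0 and 1031 and 760 bp in TKO, 1008 and 981 bp in DMSO at day 4 and 536 and 810 bp in DMSO at day 10. With NSD2LDD it covered 970 and 1043 bp at day 4 and 262 and 961 bp at day 10. Its log2 difference was 1.40 (SE 0.26, adjusted p = 0.00377). The LINC02827 region (chr12:3299725-3301048) covered 246 and 158 bp at day 0, 1028 and 510 bp in TKO and 455 to 888 bp in DMSO, with a difference of 1.33 (SE 0.19, adjusted p = 0.000413). The day 0 pair was below every other KMS11 library at LINC02827, and below all 4 DMSO libraries at PAXIP1-AS2, where 1 NSD2LDD library at day 10 was as low as day 0. Over all 30 regions that rose, both day 0 libraries lay below all 4 KMS11 DMSO libraries in 23 (76.7%), and both TKO libraries lay above them in 14 (46.7%). Over the 100 that fell, both TKO libraries lay below all 4 DMSO libraries in 92 (92.0%), and both day 0 libraries above them in 32 (32.0%). These counts use scaled values. The regions were called on the difference between day 0 and TKO, so an extreme day 0 or TKO pair is partly built into them. The DMSO libraries entered the choice through the shared estimate of spread and the rule of a peak in every library. The counts are therefore descriptions and not an independent test. Among regions not called, both TKO libraries lay below the DMSO libraries in 8.98% and above them in 11.7%, and both day 0 libraries lay below in 7.13% and above in 13.6%. DMSO and time in culture cannot be told apart from day 0 here. The other 3 largest rises were near FN3KRP, a kinase that repairs glycated proteins (1.27), near KMT2E, a chromatin regulator (1.12), and in CELF2, a splicing factor (1.11), and the last 2 were called in 9 and 3 of the 22 fits without 1 library.

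**Figure D4:**
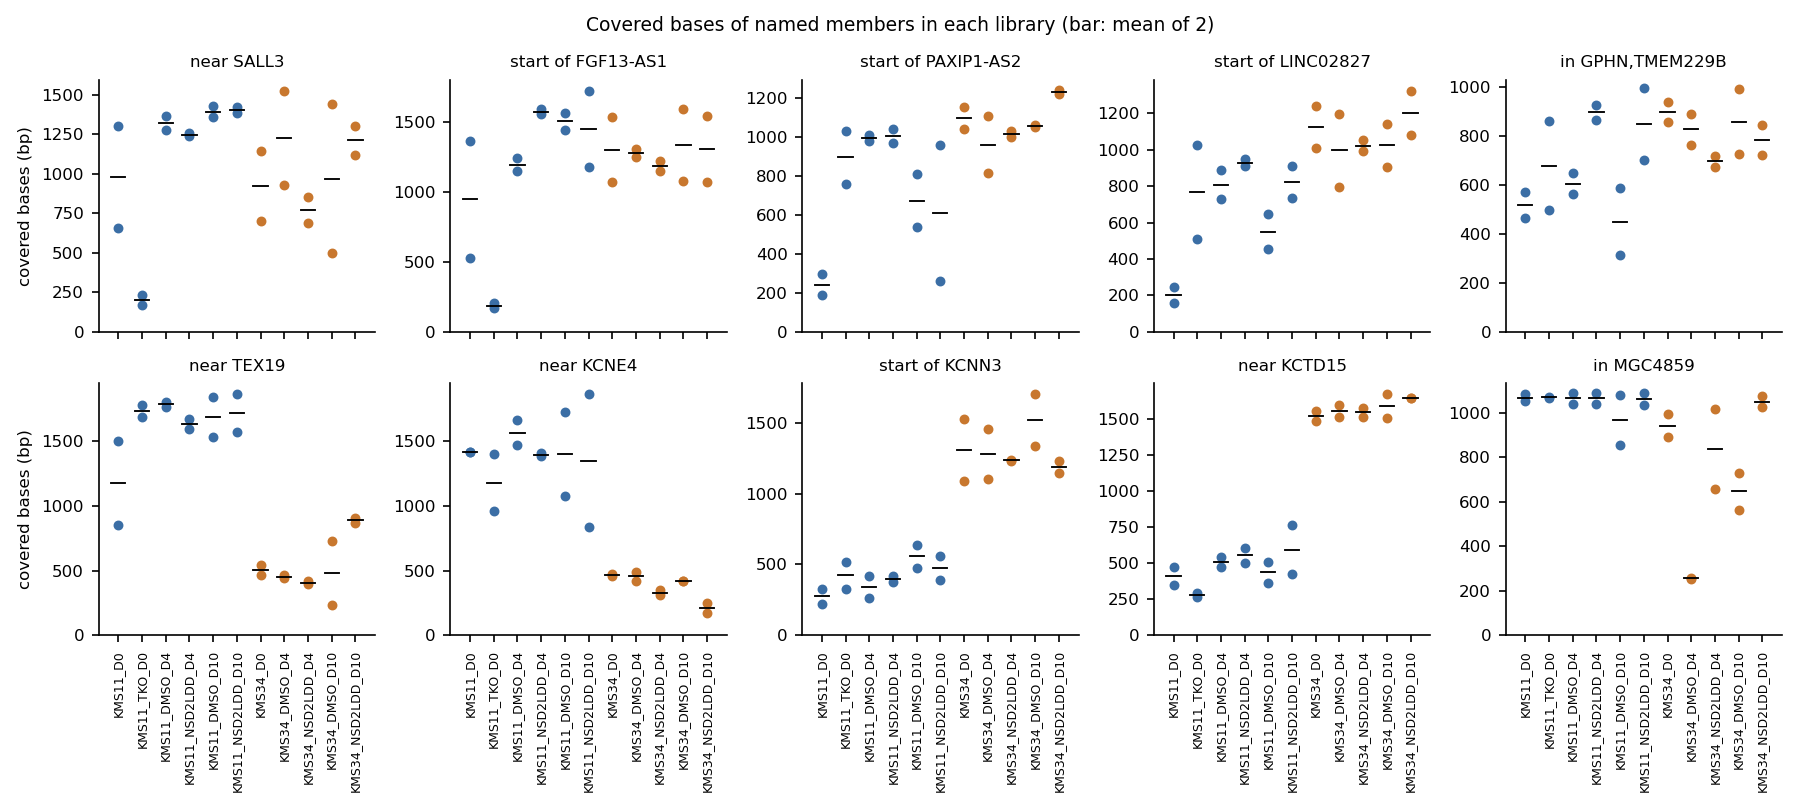
Covered bases (bp) of 10 regions in each library by group (blue KMS11, orange KMS34, horizontal bars the mean of 2 libraries). The TKO pair is low near SALL3 and at the FGF13-AS1 start, the day 0 KMS11 pair is low at the LINC02827 start and, with 1 NSD2LDD library, at the PAXIP1-AS2 start, and the lines separate near TEX19, KCNE4, KCNN3 and KCTD15.

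More regions were called between the lines than in any other comparison. Comparing KMS34 with KMS11 over day 0 and DMSO libraries (6 against 6), 947 regions were lower in KMS34 (17.4%, against 14.2% of all regions) and 382 higher (7.03%, against 20.0% of all). The direction depends on the scaling: without it 281 were lower and 602 higher, and scaled by always-open regions at gene ends 1155 were lower and 277 higher. With the number of peaks as a covariate they were 590 and 154. The median over all regions was 0.14 as scaled and 0.32 without scaling, and the median over the 5431 was -0.06 and 0.11. At always-open gene ends 488 were lower and 942 higher, as scaled.

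**Figure D5:**
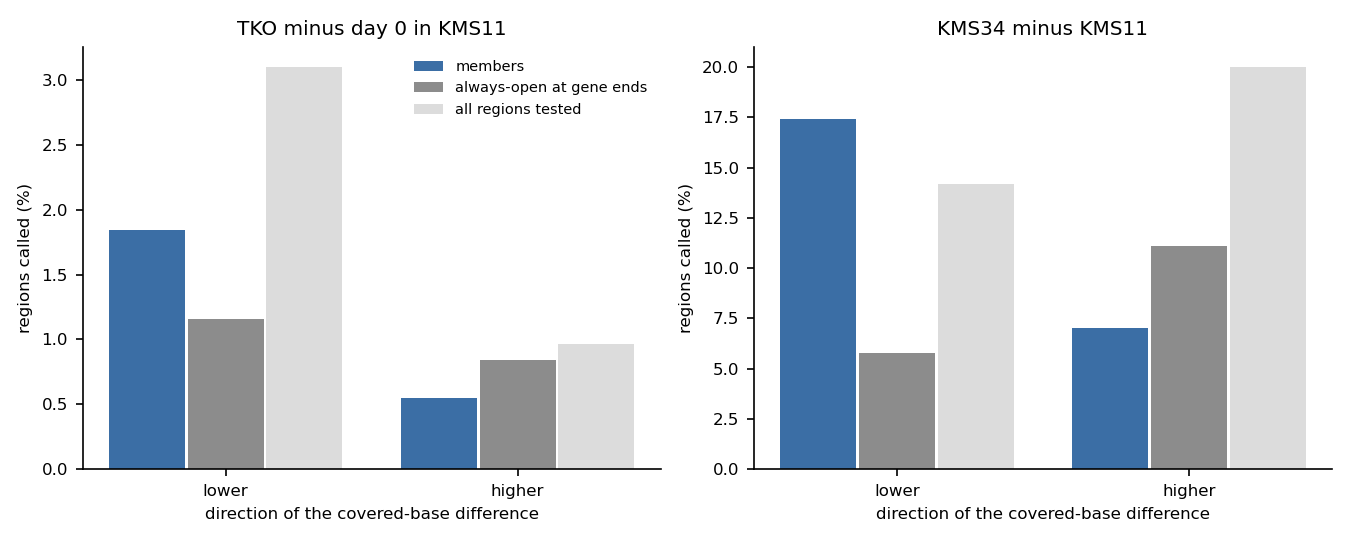
Percent of regions called lower or higher (limma, adjusted p under 0.05) for the 5431 regions, for always-open regions at gene ends and for all 69187 regions tested, between TKO and day 0 KMS11 (left) and between KMS34 and KMS11 (right), as scaled; the axes differ. In KMS34 the regions were called lower more often than higher (17.4% and 7.03%), a split that reverses without scaling.

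Regions without a listed start carried most of the calls toward KMS11. Of the 4230 regions with no listed start, 837 (19.8%) were lower in KMS34 and 258 (6.10%) higher. Of the 715 with a protein-coding start, 48 (6.71%) were lower and 77 (10.8%) higher, and of the 371 with only a lncRNA start 40 and 41. Without scaling the figures were 259 and 395 for no listed start and 7 and 137 for a protein-coding start, and scaled by gene ends 997 and 190 for no listed start and 77 and 52 for a protein-coding start. The balance thus turned without scaling for regions with no listed start, and under gene-end scaling for those with a protein-coding start. As scaled, the median log2 difference was -0.09 for no listed start and 0.03 for a protein-coding start. Chromosomes also differed: lower calls ranged from 5.85% of regions on chromosome 19 to 28.4% on chromosome 18, and higher calls from 2.40% on chromosome 14 to 12.9% on chromosome 3. Copy number differences between the lines were not tested.

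The 5 largest falls and the 5 largest rises between the lines were called in every alternative fit that was run for them. Near TEX19, a germline gene, the region at chr17:82350352-82352544 covered 855 to 1842 bp in the 6 KMS11 libraries (median 1649) and 235 to 727 bp in the 6 KMS34 libraries (median 467.5). The ranges did not overlap, and the log2 difference was -1.70 (SE 0.13, adjusted p = 4.68e-08). In CLEC16A, a gene of mitophagy and autoimmune risk (chr16:10963966-10966159), KMS11 had 836 to 1969 bp (median 1382.5) and KMS34 280 to 531 bp (median 392.5). The difference was -1.67 (SE 0.16, adjusted p = 5.04e-07). The region near KCNE4 described above differed by -1.68 (SE 0.13), one in MECOM, a zinc finger gene of blood stem cells, by -1.63 (SE 0.27), and one near TOR1AIP2 by -1.62 (SE 0.21). In the other direction, the region over the KCNN3 start shown above (chr1:154859145-154860889) covered 224 to 641 bp in KMS11 (median 374) and 1090 to 1705 bp in KMS34 (median 1397.5). That was a difference of 1.45 (SE 0.09, adjusted p = 1.09e-08). Near KCTD15 (chr19:33819673-33821368) KMS11 had 347 to 545 bp and KMS34 1484 to 1677 bp, a difference of 1.42 (SE 0.09, adjusted p = 7.44e-09). In STAP2, a signalling adaptor, the difference was 1.34 (SE 0.13). At DDX11L2, within LOC124907874 (chr2:113603301-113604541), it was 1.28 (SE 0.11), but DDX11L2 has near-identical copies at chromosome ends. Near COPS8, a COP9 signalosome subunit, it was 1.25 (SE 0.16).

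Genes of most lists, and not only plasma cell, secretory and B cell genes, had such regions more often than genes at large, with no test of the difference. Over all 19970 protein-coding genes, 3356 (16.8%) had one inside or, where it lay outside genes, as nearest gene within 50 kb. The share was 9 of 24 (37.5%) for plasma cell genes, 11 of 28 (39.3%) for secretion and the unfolded protein response, 8 of 19 (42.1%) for B cell genes and 10 of 28 (35.7%) for AP-1 and MAPK genes. It was 7 of 21 (33.3%) for NF-kappaB, 5 of 16 (31.2%) for the BCL2 family, 6 of 22 (27.3%) for chromatin looping and Polycomb, 4 of 20 (20.0%) for housekeeping genes and 1 of 13 (7.69%) for t(4;14) and NSD2-linked genes (PAK1, a kinase). Among other cell types' markers it was 0 of 17 for myeloid, 3 of 19 for T and NK cells, 3 of 20 for stromal and endothelial, and 5 of 15 for erythroid and megakaryocyte genes. Accessible DNA near a marker is not expression of it. None of the genes NSD2, FGFR3, MYC, CCND2 and IRF4 had such a region by this rule. For MYC this rests on the 50 kb limit, since the region at the PVT1 and MIR1204 genes (chr8:127794123-127796291) has MYC as its nearest protein-coding gene at 51172 bp.

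No region of these lists was called under NSD2LDD in either line, and 1, at BCL11A, was called under TKO. Between the lines plasma cell genes had 4 of 13 regions lower in KMS34 and 2 higher, against 14.2% lower and 20.0% higher among all regions. Over the 5431 regions the balance of directions turned without scaling, to 281 lower and 602 higher. XBP1, the transcription factor that drives secretory capacity, had 2 regions, and both were lower, though the ranges of the lines overlapped at both. The one 22168 bp from XBP1 (chr22:28822737-28823908) covered 483 to 1148 bp in KMS11 (median 793.5) and 255 to 676 bp in KMS34 (median 483), a difference of -0.86 (SE 0.20, adjusted p = 0.00367). The one 1266 bp from XBP1 (chr22:28791819-28793294) covered 993 to 1463 bp in KMS11 (median 1317) and 367 to 1378 bp in KMS34 (median 1116). Its difference was -0.62 (SE 0.17, adjusted p = 0.00957). PRDM1, the master regulator of plasma cells, had a region at a start inside the gene (chr6:106085884-106086529) with 329 to 623 bp over the libraries, and 1 at 31405 bp from it (chr6:106141343-106142543). The latter covered 255 to 727 bp in KMS11 and 872 to 1176 bp in KMS34 without overlap, a difference of 0.57 (SE 0.12, adjusted p = 0.00171). MAF, a myeloma oncogene in other translocations, had 1 region 27256 bp away with 396 to 1027 bp, which was not called. Of the secretory genes, chosen after its values were seen, SEC61B, a subunit of the translocon, had a region 22541 bp away (chr9:99253156-99254408). It covered 1089 to 1222 bp in KMS11 and 235 to 783 bp in KMS34, a difference of -1.36 (SE 0.14, adjusted p = 1.61e-06).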

How the data were processed

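ATAC-seq peak lists of 22 libraries were used, 1 list per library. Per the submitters' processing notes, the authors used fastp, BWA, SAMtools, Picard, MACS3 and deepTools with hg38. Versions and calling settings were not given in the sources used here. Each deposited list gives, per peak, the authors' fold enrichment (a ratio over modelled background), the -log10 q and the summit's offset. The smallest deposited -log10 q was 2. Fold and q were used only to describe, rank or filter peaks within a list.

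Peaks that overlapped by at least 1 bp were merged across libraries. A region's value in a library was its covered bp. Places came from RefSeq tables of GRCh38.p14 with 19970 protein-coding and 39124 other genes. They hold no exons, and sequence of the regions themselves was not analysed here. Regions called in at least 2 libraries entered a limma 3.58.1 fit in R 4.3.3, with trend and robust options and 11 group means, over both days for NSD2LDD, and Benjamini-Hochberg adjustment at 0.05. Where a fit left out a library, the lone library of that group was assumed to vary like the others. The fit was tested on simulated data, and covered bp were checked against bedtools 2.31.1 on simulated intervals. Other steps used Python 3.11.15, numpy 2.4.6, pandas 2.3.3 and matplotlib 3.10.9.

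The regions, gene lists and tests were chosen with earlier results of these data known. The regions named were the 10 with most covered bp, the 5 farthest from protein-coding genes, the 5 steadiest and 5 most variable, the 5 largest called falls and rises per comparison, the 5 longest chains, the 3 largest per type of non-coding gene, the 2 largest per gene list, and those at 8 genes (NSD2, FGFR3, MYC, CCND2, IRF4, PRDM1, XBP1 and MAF). The text gives a part of these. Alternatives changed the peak threshold, list length, gene-end distance, merging, scaling, covariate, replicate block, limma options, bp added before the log, minimum number of libraries, line, day and single libraries.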

Additional observations from a re-analysis of the deposited data

How the results depend on the processing

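The number of regions stayed within 1.5 times 5431 in all alternatives: 4796 with a -log10 q of at least 5, 3751 with lists of equal length, 5179 and 4598 with 2 and 5 kb from gene ends, 4312 with every gene's ends, 5429 with peaks up to 100 bp apart merged, and 5432 to 6074 without 1 library. Under NSD2LDD in KMS11 (1 region called) the count was 18 with lists of equal length, 4 with 30 bp added, and 0 without scaling, with the peak number as a covariate, with the replicate block, without trend and robust, with 300 bp added, with regions called in 1 or more libraries, within 1 line and at day 4 alone. It was 0 to 4 without 1 library. In KMS34 (4 called) it was 45 with lists of equal length, 7 with 30 bp added, 2 with a -log10 q of at least 5 and with the replicate block, 0 within 1 line, and 1 without scaling, without trend and robust, with 300 bp added, with regions called in 1 or more or 11 or more libraries and at day 10 alone. It was 1 to 16 without 1 library. For the difference of effects (0 called) it was 25 with lists of equal length, 1 with 30 bp added and 0 in every fit without 1 library.

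Between TKO and day 0 (100 lower, 30 higher) the counts were 19 and 11 without scaling, 44 and 11 without trend and robust, 51 higher with a -log10 q of at least 5, and 19 higher within 1 line. Without 1 library they ranged from 53 to 127 lower and from 14 to 128 higher. Of the 10 named regions, 5 were still called with lists of equal length. Between the lines (947 lower, 382 higher) the counts were 281 and 602 without scaling and 590 and 154 with the peak number as a covariate, and 727 to 993 and 294 to 441 without 1 library. The cause of these shifts was not tested. No region named for a called difference reversed its direction in any alternative.

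Replicate differences in scaled values correlated at 0.116 between TKO and day 0. For NSD2LDD and DMSO at days 4 and 10 it was 0.067 and 0.207 in KMS11, and 0.089 and -0.029 in KMS34. Scaling removes a shift shared by all regions of a library. Unscaled medians fell from replicate 1 to 2 in both day 0 (634 and 470 bp) and TKO (699 and 508 bp). They rose in both groups for KMS11 at day 10 and KMS34 at day 4. They went opposite ways for KMS11 at day 4 and KMS34 at day 10. Libraries of the same number were not taken as pairs in the main fit, and whether they share a batch was not tested. With the replicate block 93 regions were lower and 30 higher in TKO, 918 and 364 in KMS34 against KMS11, 0 under NSD2LDD in KMS11 and 2 in KMS34. Depth is unknown, and with 2 libraries a group small differences cannot be seen. Covered bp measures the length of called peaks, not their height.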
